A study of Danio rerio with 8 samples.

Results

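RNA was measured in nkx2.5:ZsYellow+ cells sorted from Cyp26-deficient zebrafish embryos at 28 hours post-fertilization (hpf) and compared with the same kind of cells from wild-type (WT) embryos. The age is that of the sample labels, and the study's text gives a later one for sorted cells in places. The comparison holds 1 library on each side. Of 31172 genes in the sorted-cell table, the 20033 whose normalized counts averaged 10 or more across its 4 libraries are described. Embryos of the AB/TU background were made Cyp26-deficient with morpholinos (MOs, antisense oligonucleotides that block translation or splicing) against cyp26a1 and cyp26c1, injected together at the 1-cell stage with a p53 MO. The sources used here do not state whether the WT embryos were injected. The other libraries of the table are Hdac1-depleted cells, from embryos given an hdac1 MO and the p53 MO, and a WT library made for that comparison, here called the second WT library and marked WT (hdac1) in the plots. All embryos carried the nkx2.5:ZsYellow transgene, in which regulatory DNA of nkx2.5 drives a yellow fluorescent protein. How many embryos each library holds is not given in the sources used here, and the study states that the sorted cells can include differentiated cardiomyocytes and pharyngeal arch progenitors besides second heart field (SHF) cells.

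Retinoic acid (RA) is a vitamin A derivative that enters the nucleus and binds retinoic acid receptors (RARs), which sit on DNA as dimers with retinoid X receptors and switch nearby genes between repression and activation. The Aldh1a enzymes make RA, and the Cyp26 enzymes, cytochromes of the endoplasmic reticulum, break it down, so that embryos without Cyp26 activity hold excess RA. In the head and trunk, RA sets positions along the anterior to posterior axis through hox genes, and it limits the size of the heart field. The Nkx2.5 protein is a homeodomain factor of heart progenitors, cardiomyocytes and, at this stage, progenitors of the pharyngeal arch arteries. The SHF is the population of late-differentiating progenitors that adds ventricular muscle and smooth muscle to the arterial pole of the heart.

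Gene counts summed to 14349764 in Cyp26-deficient cells and 13133598 in their WT cells, with 13133598 the lowest and 19338815 the highest total of the 4 libraries. A gene was called raised or lowered where its log2 fold change, taken with a pseudocount of 1 normalized count, was past 2-fold. In Cyp26-deficient cells 1764 genes were raised (8.81% of those tested) and 1522 were lowered (7.60%). With 1 library per condition these counts have no replicate check, and no p-value is given. The 2 WT libraries differed from each other nearly as often: 1682 genes (8.40%) were more than 2-fold higher and 1372 (6.85%) more than 2-fold lower in the second WT library than in the WT library of the Cyp26 comparison. Most results are therefore also given against the second WT library, against which 1317 genes (6.57%) were raised and 1521 (7.59%) lowered. Ratios, list medians and counts of list members for which no WT library is named are against the pair's own WT. Genes past 2-fold against each of both WT libraries numbered 469 raised (2.34%) and 712 lowered (3.55%). Counts of list members below are to be read beside the shares of all genes. These are 8.81% raised and 7.60% lowered against their own WT, and 2.34% and 3.55% against both WT libraries. They are not matched to the expression level of a list. In the lowest quintile by mean normalized count 20.6% of genes were raised and 19.1% lowered, against 1.15% and 1.67% in the highest. How far the level of a list's genes bears on its share was not tested. The median log2 fold change over all genes tested was -0.0045 against their WT cells and 0.025 against the second WT library. Of the raised genes, 331 (18.8%) were more than 2-fold lower in the WT library of the Cyp26 comparison than in each of the other 3 libraries while those 3 were within 2-fold of each other, and 99 (5.61%) stood alone in the same way in Cyp26-deficient cells. Of the lowered genes, 256 (16.8%) were lower in Cyp26-deficient cells alone and 133 (8.74%) were higher in their WT cells alone. A fold given as a plain ratio below is the ratio of normalized counts without the pseudocount, and its 95% interval is exact (Clopper-Pearson) and covers counting error only.

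**Figure D1:**
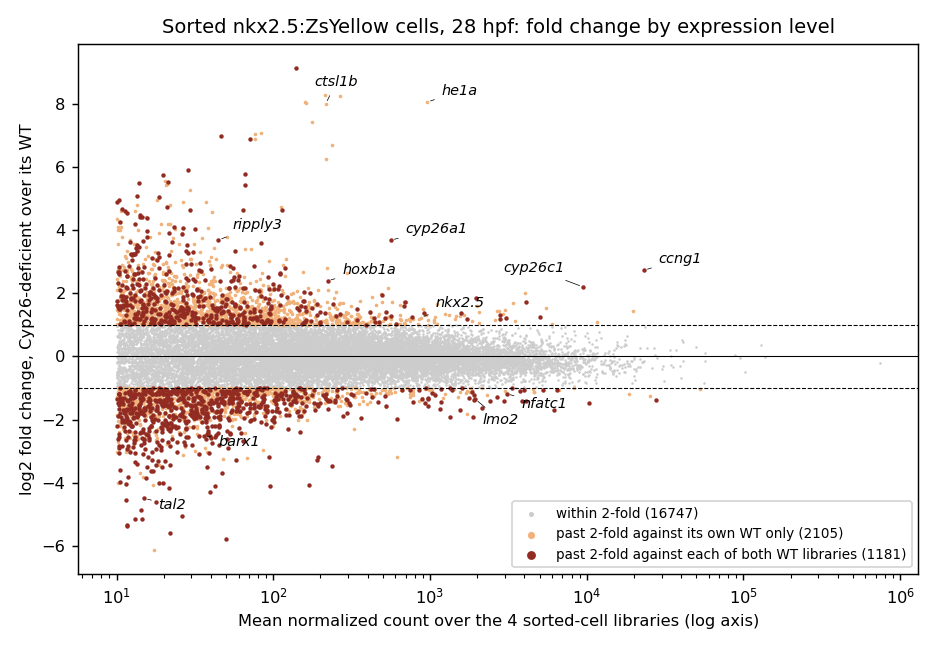
Each point is 1 of the 20033 genes tested, with its mean normalized count over the 4 sorted-cell libraries on a log axis and its log2 fold change in Cyp26-deficient cells over their WT cells. Orange points passed 2-fold against their own WT only (2105 genes), dark red points against each of both WT libraries (1181 genes), and the dashed lines mark 2-fold. The cyp26 genes and ripply3 stand above the cloud in dark red, whereas he1a and ctsl1b, higher still, are orange.

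Markers of the labelled cells were present in every library, and so were markers of other cell types. nkx2.5 had 1208 normalized counts in Cyp26-deficient cells, against 516 in their WT cells and 973 in the second WT library. The cardiomyocyte gene vmhc, the ventricular myosin heavy chain, had 14414 normalized counts in Cyp26-deficient cells, against 15859.8 in their WT cells and 20519 in the second WT library. The 16 of 17 cardiomyocyte genes tested summed to 84729 normalized counts in Cyp26-deficient cells, against 74981 in their WT cells and 92497 in the second WT library. The SHF list of 17 genes summed to 15266 in Cyp26-deficient cells, against 18716 in their WT cells and 20645 in the second WT library. The neutrophil lysozyme lyz had 20665 normalized counts in Cyp26-deficient cells, against 27646 in their WT cells and 14238 in the second WT library, and the fast skeletal muscle myosin myhz1.1 had 11781 normalized counts in Cyp26-deficient cells, against 6788 in their WT cells and 11133 in the second WT library. Both WT libraries thus held leukocyte and skeletal muscle RNA, and their part in the results below was not tested.

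In the RA pathway itself, RNA of both MO targets was raised. RNA of cyp26a1 (ENSDARG00000033999, Zv9 chromosome 12, 9708963 to 9712555), the main RA-degrading enzyme of the early embryo, had 1863 normalized counts in Cyp26-deficient cells, against 144 in their WT cells, and 125 in Hdac1-depleted cells, against 118 in the second WT library. The Cyp26-deficient library stood alone, 12.9-fold (10.7 to 15.7) above its WT and 15.8-fold above the second. RNA of cyp26c1 (ENSDARG00000056029, chromosome 17, 19353009 to 19365481), a related enzyme of the hindbrain, head mesenchyme and arches, had 23680.5 normalized counts in Cyp26-deficient cells, against 5159 in their WT cells, and 3809.6 in Hdac1-depleted cells, against 5210.4 in the second WT library. It was 4.59-fold (4.44 to 4.75) above its WT and 4.54-fold above the second WT library, and the WT libraries lay within 2-fold of each other. An MO acts on the RNA after transcription, so these counts are no measure of the knockdown. In bulk RNA, a higher count from more cells of a type and one from more RNA per cell cannot be told apart. The third family member, cyp26b1, was not targeted and had 255 normalized counts in Cyp26-deficient cells, against 184 in their WT cells and 198 in the second WT library, a ratio of 1.39 that did not pass 2-fold.

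The exons of both targets were raised along the whole transcript, to unequal degrees. For cyp26a1, a transcript of 7 exons, the ratio of Cyp26-deficient cells to their WT cells lay between 7.12 at exon 2 and 43.3 at exon 5, where 164 counts stood against 3, and was 10.8 (8.36 to 14.3) at the 3′ exon. For cyp26c1, also of 7 exons, exons 2 to 5 were 20.2 to 23.9 times as high in Cyp26-deficient cells as in their WT cells, and exon 6 was 8.37 times as high. The 3′ exon, which held most of the counts, was 3.58 (3.45 to 3.71) times as high. Exon 1 had 43 counts in Cyp26-deficient cells and 0 in their WT cells, at least 12.4-fold higher against a floor of 3 counts. The 3′ exon of cyp26c1 therefore held 68.0% of the transcript's counts in Cyp26-deficient cells and 87.2% in their WT cells. Over 3933 well-covered genes the median share on the 3′ exon was 25.04% in Cyp26-deficient cells and 28.7% in their WT cells, a smaller difference.

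**Figure D2:**
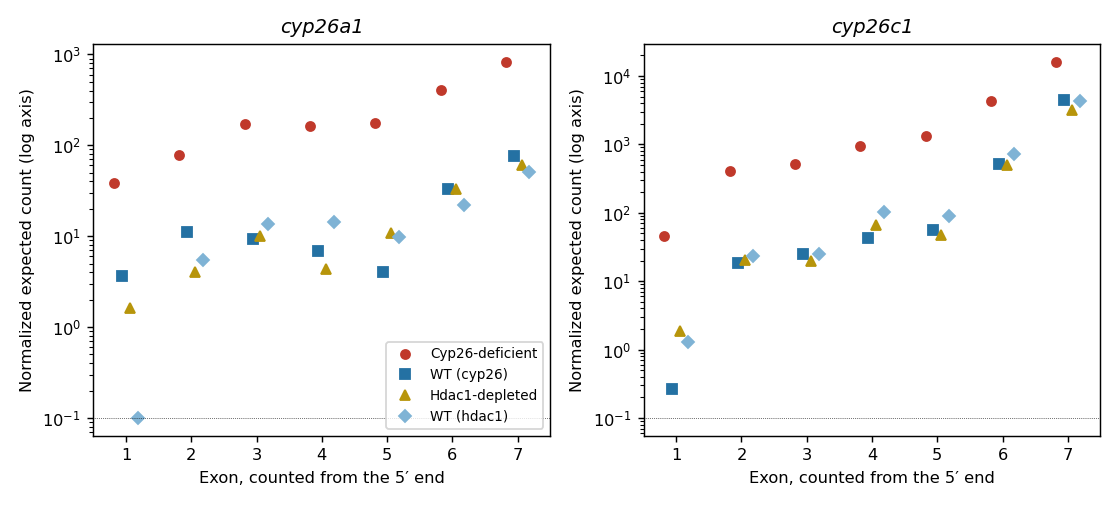
Normalized expected counts (log axis) of each exon of cyp26a1 and cyp26c1, counted from the 5′ end, in the 4 sorted-cell libraries. Counts under 0.1 are drawn on the dotted line at 0.1. Cyp26-deficient cells lie above the other 3 libraries at every exon, and the gap for cyp26c1 is smallest at exon 7, where the ratio to WT is 3.58.

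Among the other enzymes of RA metabolism, the retinaldehyde reductases dhrs3a and dhrs3b were raised. The 32 of 36 listed genes of RA metabolism, binding and receptors that were tested held 7 raised genes and 1 lowered gene, of which 4 and 1 passed against each of both WT libraries, with a median log2 fold change of 0.23. dhrs3a, which turns retinaldehyde back into retinol, had 409 normalized counts in Cyp26-deficient cells, against 101 in their WT cells and 116 in the second WT library. It was 4.04-fold (3.17 to 5.19) above its WT and 3.53-fold above the second WT library. Its paralog dhrs3b had 139 normalized counts in Cyp26-deficient cells, against 54.3 in their WT cells and 39.7 in the second WT library, a ratio of 2.55 (1.8 to 3.68). rdh10a, which works in the other direction and oxidizes retinol to retinaldehyde, was 2.16-fold higher against its WT and 1.57-fold against the second. The RA-synthesizing enzyme aldh1a2 had 1862 normalized counts in Cyp26-deficient cells, against 3038 in their WT cells and 3372 in the second WT library, which is 0.613 and 0.552 of the WT levels and within 2-fold of both. aldh1a3 had 57.6 normalized counts in Cyp26-deficient cells, against 62.9 in their WT cells and 57 in the second WT library, a ratio of 0.916.

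Receptors and binding proteins did not move together. Of the RARs, raraa was 1.81-fold and rargb 1.71-fold its WT level in Cyp26-deficient cells, whereas rarab was at 0.613 and rarga at 1.16, all within 2-fold. The retinoid X receptor rxrab had 61.9 normalized counts in Cyp26-deficient cells, against 22.2 in their WT cells and 40.5 in the second WT library, 2.79-fold (1.62 to 5.02) above its WT, but 1.53-fold above the second. crabp2b, which encodes a cellular RA-binding protein, was the lowered member. It had 1658 normalized counts in Cyp26-deficient cells, against 4372 in their WT cells, and 6600.4 in Hdac1-depleted cells, against 3847 in the second WT library. Cyp26-deficient cells had the lowest level of the 4 libraries, at 0.379 (0.357 to 0.403) of their WT and 0.431 of the second. Its paralog crabp2a had 1079 normalized counts in Cyp26-deficient cells, against 909 in their WT cells and 983 in the second WT library, a ratio of 1.19. rbp1a, which binds retinol, had 516 normalized counts in Cyp26-deficient cells, against 248 in their WT cells and 383 in the second WT library, and passed 2-fold against its own WT only.

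Known RA-responsive genes, a list that holds cyp26a1, cyp26c1 and several hox genes, were mostly higher in Cyp26-deficient cells. The list was chosen with earlier results of these data known. Of 34 tested, 28 lay above their WT level, 15 (44.1%) were raised and 1 was lowered, beside 8.81% and 7.60% of all genes, and 12 of the 15 passed against each of both WT libraries, beside 2.34%. The list's median log2 fold change was 0.86 against their WT cells and 0.79 against the second WT library, and the WT libraries differed by 0.08 over it. ripply3 (ENSDARG00000036974, chromosome 10, 162944 to 166288), a corepressor that binds T-box factors such as Tbx1 and is expressed in pharyngeal endoderm and ectoderm, had 139 normalized counts in Cyp26-deficient cells, against 9.87 in their WT cells, and 16.9 in Hdac1-depleted cells, against 13.2 in the second WT library. The count behind this level was 130 in Cyp26-deficient cells and 8 in their WT cells. The ratio was 14.1 (6.92 to 33.2) against its WT and 10.5 (6.22 to 18.9) against the second WT library. All 4 exons of ripply3 had their highest level in Cyp26-deficient cells, and the last exon was 11.5 times as high as in WT. The gene lies within an intron of ets2 on the same strand, shares no listed exon with it, and 99.5% of its count lay on its own exons. ets2 itself had 1511 normalized counts in Cyp26-deficient cells, against 2071 in their WT cells and 1169 in the second WT library.

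**Figure D3:**
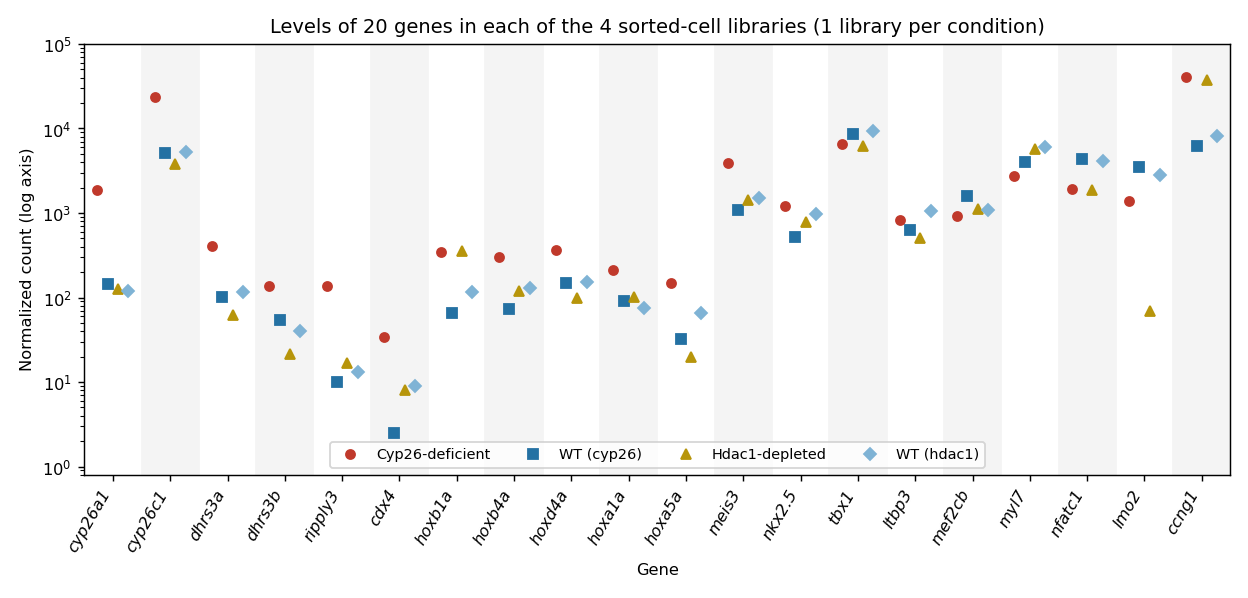
Normalized counts (log axis) of 20 genes in the 4 sorted-cell libraries, 1 library per condition, with Cyp26-deficient cells as red circles at the left of each gene. For cyp26a1, cyp26c1, dhrs3a, dhrs3b, ripply3, hoxb4a and meis3 the red circle lies above all other symbols, whereas hoxb1a and ccng1 were about as high in Hdac1-depleted cells.

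Other RA-responsive transcription factors were raised too. meis3, a hox cofactor of the hindbrain, had 3891 normalized counts in Cyp26-deficient cells, against 1072 in their WT cells and 1512 in the second WT library, 3.63-fold (3.37 to 3.91) above its WT. cdx4, a caudal homeodomain factor that activates posterior hox genes, had 34.1 normalized counts in Cyp26-deficient cells, against 2.47 in their WT cells and 9.09 in the second WT library. Its WT level rests on 2 counts, so that the ratio of 13.8 has an interval of 3.53 to 119, and against the second WT library the ratio was 3.75. hnf1ba, a factor of the hindbrain, kidney and gut, was 2.1-fold above its WT but 1.2-fold above the second. The lowered member was foxg1b, with 17.1 normalized counts in Cyp26-deficient cells, against 44.4 in their WT cells and 50.4 in the second WT library. The orphan receptors nr2f1a and nr2f2, which mark atrial and arch cells, had ratios of 0.778 and 0.79, within 2-fold.

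Anterior, middle and posterior hox genes were raised, and most of the raised anterior and middle ones, but 0 of the posterior ones, passed against both WT libraries. Of 14 anterior hox genes (paralog groups 1 to 4), 6 were raised and 0 lowered, with 12 above their WT level and a median log2 fold change of 0.78 (0.89 against the second WT library). hoxb1a, the gene of hindbrain rhombomere 4, had 348 normalized counts in Cyp26-deficient cells, against 65.4 in their WT cells, and 359 in Hdac1-depleted cells, against 117 in the second WT library. Its ratio was 5.32 (3.97 to 7.25) to its WT and 2.98 to the second. hoxb4a had 305 normalized counts in Cyp26-deficient cells, against 72.8 in their WT cells and 129 in the second WT library, 4.19-fold (3.16 to 5.65) above its WT. hoxd4a had 365 normalized counts in Cyp26-deficient cells, against 147 in their WT cells and 152 in the second WT library, and hoxa1a had 209 normalized counts in Cyp26-deficient cells, against 91.3 in their WT cells and 76.1 in the second WT library. These 4 passed against both WT libraries, and hoxb1b and hoxd3a against their own WT only. hoxa2b, needed for the identity of the second arch, had 164 normalized counts in Cyp26-deficient cells, against 316 in their WT cells and 204 in the second WT library, a ratio of 0.52. Of 12 middle hox genes (groups 5 to 8), 3 were raised, all against both WT libraries, and the median was 0.75 (0.66 against the second). hoxa5a had 147 normalized counts in Cyp26-deficient cells, against 32.1 in their WT cells and 66.1 in the second WT library. hoxb8b had 68.3 normalized counts in Cyp26-deficient cells, against 19.7 in their WT cells and 31.4 in the second WT library, and hoxb5a had 109.9 normalized counts in Cyp26-deficient cells, against 48.1 in their WT cells and 47.1 in the second WT library. Of 22 posterior hox genes (groups 9 to 13), 8 (36.4%) were raised and 2 (9.09%) lowered, beside 8.81% and 7.60% of all genes. Their median was 0.75 (0.29 against the second WT library). hoxa9b, for example, had 93.9 normalized counts in Cyp26-deficient cells, against 17.3 in their WT cells and 76.9 in the second WT library. Over this list the second WT library was itself higher than the first by a median of 0.84. Neighbouring hox genes overlap in the annotation on the same strand, so reads may be split between them.

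Cardiomyocyte genes did not pass 2-fold in either direction. Of 16 tested, 0 were raised and 0 lowered, 11 were below and 5 at or above their WT level, and the median log2 fold change was -0.18 against their WT cells and -0.53 against the second WT library. The myosin light chain myl7 had 2732 normalized counts in Cyp26-deficient cells, against 4005 in their WT cells and 5997 in the second WT library, a ratio of 0.682. The atrial myosin myh6 had 3552 normalized counts in Cyp26-deficient cells, against 5068 in their WT cells and 3639 in the second WT library, and the natriuretic peptide gene nppa had 234 normalized counts in Cyp26-deficient cells, against 380.1 in their WT cells and 477 in the second WT library. The sarcomere gene ttna, encoding titin, was slightly higher, with 45808 normalized counts in Cyp26-deficient cells, against 33417 in their WT cells and 38045 in the second WT library. Levels of vmhc, myh6 and ttna thus lay within 2-fold of both WT libraries, whereas myl7 and nppa were at 0.456 and 0.49 of the second.

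Of the cardiac transcription factors, 3 of 16 were raised and 1 lowered against their WT, and 0 of these held against the second WT library. nkx2.5 was 2.34-fold above its WT (2.09 to 2.63) but 1.24-fold above the second. Its paralog nkx2.7 had 622 normalized counts in Cyp26-deficient cells, against 168 in their WT cells and 411 in the second WT library, and hand2, a basic helix-loop-helix factor of the heart and arches, had 268 normalized counts in Cyp26-deficient cells, against 109 in their WT cells and 246 in the second WT library. In all 3 genes the WT library of the Cyp26 comparison was the lowest of the 4. hey2, a Notch effector of ventricular progenitors, was lowered, with 114 normalized counts in Cyp26-deficient cells, against 283 in their WT cells and 132 in the second WT library, but lay at 0.863 of the second WT library. The genes gata4, tbx20 and mef2ca had ratios to WT of 0.983, 1.06 and 0.968. tbx5a, a factor of the first heart field, had 79 normalized counts in Cyp26-deficient cells, against 136 in their WT cells and 117 in the second WT library.

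The SHF list gave different directions against the WT libraries. Of 17 genes 3 were raised (isl2b, fgf8a and nrg1), 0 were lowered, and 0 passed against both WT libraries. Its median log2 fold change was 0.33 against their WT cells and -0.23 against the second WT library. ltbp3, which encodes a TGF-beta binding protein of SHF progenitors, had 820.5 normalized counts in Cyp26-deficient cells, against 633 in their WT cells, and 500.5 in Hdac1-depleted cells, against 1045 in the second WT library. It was at 1.3 (1.16 to 1.45) of its WT and at 0.785 of the second, on opposite sides of no change. mef2cb, a MADS-box factor of the arterial pole, had 928 normalized counts in Cyp26-deficient cells, against 1572 in their WT cells and 1092 in the second WT library, ratios of 0.59 to its WT and 0.85 to the second. tbx1, the T-box factor of pharyngeal mesoderm, had 6488 normalized counts in Cyp26-deficient cells, against 8692 in their WT cells and 9415 in the second WT library, ratios of 0.746 to its WT and 0.689 to the second. eya1, a transcriptional cofactor, had 2185 normalized counts in Cyp26-deficient cells, against 3762 in their WT cells and 3788 in the second WT library, and isl1 had 202 normalized counts in Cyp26-deficient cells, against 173 in their WT cells and 155 in the second WT library. The growth factor fgf8a had 141 normalized counts in Cyp26-deficient cells, against 56.8 in their WT cells and 92.6 in the second WT library. For mef2cb, tbx1, eya1 and tcf21 the Cyp26-deficient level was below both WT libraries, by less than 2-fold each. Of 7 outflow tract smooth muscle genes tested, acta2, smooth muscle actin, was lowered against its own WT, with 72.6 normalized counts in Cyp26-deficient cells, against 153 in their WT cells and 122 in the second WT library, and elna was raised from few counts, with 9.6 normalized counts in Cyp26-deficient cells, against 3.7 in their WT cells and 19 in the second WT library.

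Most endocardial and vascular genes lay below their WT level without passing 2-fold. The endocardial and valve list changed direction with the WT library, with a median log2 fold change of -0.31 against their WT cells and 0.10 against the second WT library. Of 9 endocardial and valve genes, 1 was lowered. This was nfatc1, the transcription factor of endocardial cells that form valves, with 1939 normalized counts in Cyp26-deficient cells, against 4404 in their WT cells, and 1855 in Hdac1-depleted cells, against 4132 in the second WT library. Cyp26-deficient cells were at 0.44 (0.416 to 0.466) of their WT and 0.469 of the second WT library. notch1b had 3810.0 normalized counts in Cyp26-deficient cells, against 5489.8 in their WT cells and 3086 in the second WT library, and klf2a, a flow-responsive factor, had 345 normalized counts in Cyp26-deficient cells, against 554 in their WT cells and 747 in the second WT library. Of 23 endothelial genes 1 was raised and 0 were lowered, and 15 lay below their WT. The list's median was -0.36, and -0.25 against the second WT library. The hemangioblast factor etv2 had 2163 normalized counts in Cyp26-deficient cells, against 4242 in their WT cells and 3870.2 in the second WT library, ratios of 0.51 to its WT and 0.559 to the second. cdh5, vascular cadherin, had 4078 normalized counts in Cyp26-deficient cells, against 7001 in their WT cells and 5187 in the second WT library, and the VEGF receptor gene kdrl had 2982 normalized counts in Cyp26-deficient cells, against 4869 in their WT cells and 4465 in the second WT library. The raised member vsg1, a vessel-specific gene, had 158 normalized counts in Cyp26-deficient cells, against 53.1 in their WT cells and 105 in the second WT library.

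lmo2, a LIM protein of blood and endothelial progenitors, had 1377 normalized counts in Cyp26-deficient cells, against 3515 in their WT cells and 2800.3 in the second WT library. It was at 0.392 (0.367 to 0.419) of its WT and 0.492 of the second, past 2-fold against both. Of 23 leukocyte genes, which include lmo2, 1 was raised and 2 were lowered, with a median of -0.09 against their WT and 0.92 against the second WT library. mpx, myeloperoxidase, had 5994 normalized counts in Cyp26-deficient cells, against 6793 in their WT cells and 2982 in the second WT library, and the macrophage gene mpeg1 had 425 normalized counts in Cyp26-deficient cells, against 626 in their WT cells and 150.5 in the second WT library. The chemokine receptor cxcr4b was the raised member, with 268 normalized counts in Cyp26-deficient cells, against 119.7 in their WT cells and 124 in the second WT library. Of 22 erythrocyte genes 5 were raised (22.7%, beside 8.81% of all genes) and 0 lowered, 0 of them against both WT libraries. The carbonic anhydrase cahz had 60.8 normalized counts in Cyp26-deficient cells, against 16 in their WT cells and 54.6 in the second WT library, the largest ratio of the 5.

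**Figure D4:**
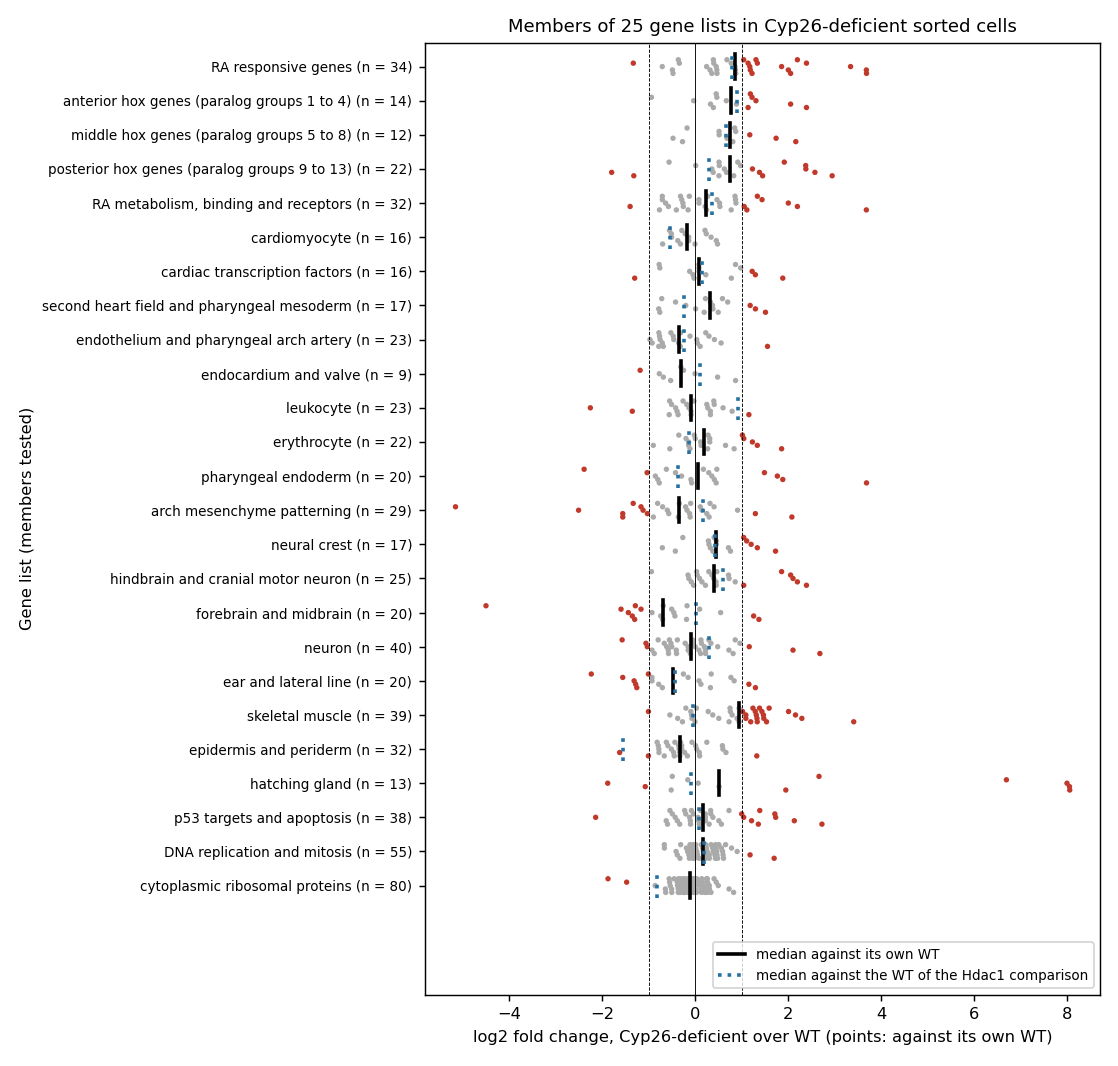
Log2 fold change of every tested member of 25 gene lists in Cyp26-deficient cells over their WT cells, red where past 2-fold (dashed lines). The black bar is the list's median against its own WT and the dotted blue bar the median against the second WT library. The bars coincide nearly for RA-responsive and anterior hox genes, at 0.86 and 0.79 and at 0.78 and 0.89, and lie apart for skeletal muscle, at 0.94 and -0.04.

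Pharyngeal genes held changes in both directions. Of 20 pharyngeal endoderm genes 4 were raised and 2 lowered, and foxi1 and ripply3 were raised and fgf24 and sox32 lowered against both WT libraries. foxi1, a forkhead factor of pharyngeal pouches, otic and epibranchial placodes, had 553 normalized counts in Cyp26-deficient cells, against 196 in their WT cells and 194 in the second WT library, 2.82-fold (2.35 to 3.39) above its WT. The genes pax9, nkx2.3 and foxa2 had 18.1, 46.9 and 33.1 normalized counts in Cyp26-deficient cells, against 28.4, 82.7 and 40.7 in their WT cells, none past 2-fold. Of 29 arch patterning genes 2 were raised and 8 lowered, beside 8.81% and 7.60% of all genes, and the median was -0.34 against their WT but 0.16 against the second WT library. The lowered genes were edn1, gsc, dlx1a, dlx4b, dlx4a, dlx3b, barx1 and msxe, of which dlx1a and dlx4b were higher than in the second WT library, by 1.57 and 1.75 on the log2 scale. edn1, the ligand that patterns the ventral arches, had 296 normalized counts in Cyp26-deficient cells, against 603 in their WT cells and 707 in the second WT library, ratios of 0.49 to its WT and 0.418 to the second. dlx3b had 83.2 normalized counts in Cyp26-deficient cells, against 247 in their WT cells and 222 in the second WT library. barx1, a homeobox gene of arch condensations, had 9.6 normalized counts in Cyp26-deficient cells, against 59.2 in their WT cells and 52.9 in the second WT library, a ratio of 0.162 (0.0699 to 0.334). msxe had 0 counts in Cyp26-deficient cells, against 28 in their WT cells and 4 in the second WT library. The genes edn1, gsc, dlx3b, barx1 and msxe passed against each of both WT libraries, whereas dlx5a, dlx2a and hand2 were not lowered. For msxe the second WT library had 4 counts, so that pass rests on the pseudocount. nkx3.2, a jaw joint factor, was raised, with 50.1 normalized counts in Cyp26-deficient cells, against 11.1 in their WT cells and 22.3 in the second WT library.

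Of cartilage, crest and pigment genes, matn1 and matn4 passed against both WT libraries. Of 16 cartilage genes 1 was raised and 2 lowered, with medians of -0.19 against their WT and -0.89 against the second WT library. The matrilin matn4 had 971 normalized counts in Cyp26-deficient cells, against 2575 in their WT cells and 4503 in the second WT library, past 2-fold against both. In Hdac1-depleted cells matn4 had 1552. sox9a, the chondrogenic factor, had 3863 normalized counts in Cyp26-deficient cells, against 4036 in their WT cells and 4459.6 in the second WT library, a ratio of 0.957. Of 17 neural crest genes 5 (29.4%, beside 8.81% of all genes) were raised, 0 lowered and 0 passed against both WT libraries, with medians of 0.45 and 0.43. sox10, the crest and glial factor, had 420.4 normalized counts in Cyp26-deficient cells, against 255 in their WT cells and 312 in the second WT library, and snai1b, a zinc finger gene, had 453 normalized counts in Cyp26-deficient cells, against 179 in their WT cells and 252 in the second WT library. Of 18 pigment genes 4 (22.2%) were raised, 0 of them against both WT libraries.

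Of 25 genes of the hindbrain and cranial motor neurons 6 were raised and 0 lowered, with a median of 0.40 (0.60 against the second WT library), and cyp26c1, hoxb1a, hoxb4a and meis3 were the 4 that passed against both. These 4 are also RA-responsive, so the lists share them. Without them, phox2a and hnf1ba were the raised members, against their own WT only. The rhombomere genes egr2b and mafba had 182 and 442 normalized counts in Cyp26-deficient cells, against 133 and 491 in their WT cells. Of 20 forebrain and midbrain genes 2 were raised and 7 lowered, and the median was -0.69 against their WT, but 0.03 against the second WT library. The 2 WT libraries differed by a median of -0.78 over this list, as large as the change itself. tal2, a midbrain helix-loop-helix gene, was the lowered member that passed against both. It had 1.07 normalized counts in Cyp26-deficient cells, against 45.7 in their WT cells and 13.2 in the second WT library, from 1, 37 and 16 counts, with a ratio of 0.0234 (0.000576 to 0.139). Hdac1-depleted cells had 0 counts of tal2. otx2, an anterior head gene, had 91.8 normalized counts in Cyp26-deficient cells, against 236 in their WT cells and 100.04 in the second WT library, and lhx2b had 256 normalized counts in Cyp26-deficient cells, against 695 in their WT cells and 475 in the second WT library. The genes dmbx1a and wnt1, of the midbrain and its border with the hindbrain, were raised against both, dmbx1a with 168 normalized counts in Cyp26-deficient cells, against 64.2 in their WT cells and 62.8 in the second WT library. foxb1.2, a forkhead gene of the neural tube, had 82.2 normalized counts in Cyp26-deficient cells, against 9.87 in their WT cells and 12.4 in the second WT library, 8.32-fold (4.02 to 19.96) above its WT and 6.62-fold above the second. Of 40 neuronal genes 3 were raised and 3 lowered, and of 32 neural progenitor genes 2 (her6 and her9) were raised.

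Several ear genes were lowered. Of 20 ear and lateral line genes 2 were raised and 6 lowered (30.0%, beside 7.60%), 5 of the 6 against both WT libraries, with a median of -0.48 against their WT and -0.44 against the second. stm, an otolith matrix gene called starmaker, had 236 normalized counts in Cyp26-deficient cells, against 564 in their WT cells and 962 in the second WT library. otomp, otolith matrix protein, had 30.9 normalized counts in Cyp26-deficient cells, against 76.5 in their WT cells and 179 in the second WT library. dlx3b, given above, is also a gene of the otic placode. otogl, otogelin-like, had 0 counts in Cyp26-deficient cells, against 3 in their WT cells and 38 in the second WT library, and no fold is given to 3 counts. Its call against its own WT rests on the pseudocount. With the gene at 0 taken at its bound the median was -0.23. oc90, another otolith gene, had 1521 normalized counts in Cyp26-deficient cells, against 1813 in their WT cells and 2551 in the second WT library, a ratio of 0.839, within 2-fold. Of 30 genes of the retina and lens 7 were raised, 0 of them against both WT libraries, and 4 were lowered, all against both (mipb, foxe3, crx and rlbp1a), with medians of 0.01 against their WT and -1.28 against the second. Of these, the photoreceptor gene crx had 20.3 normalized counts in Cyp26-deficient cells, against 114 in their WT cells and 75.2 in the second WT library.

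Skeletal muscle and hatching gland lists held many raised genes, most of which were not raised against the second WT library. Of 39 skeletal muscle genes 19 (48.7%, beside 8.81% of all genes) were raised, but 1 passed against both WT libraries. The medians were 0.94 against their WT cells and -0.04 against the second WT library, and the WT libraries differed by 0.90. The list summed to 156185 normalized counts in Cyp26-deficient cells, against 90620 in their WT cells and 150213 in the second WT library. actc1b had 13710.0 normalized counts in Cyp26-deficient cells, against 6439 in their WT cells and 13906 in the second WT library, and myogenin, myog, had 101 normalized counts in Cyp26-deficient cells, against 8.64 in their WT cells and 84.3 in the second WT library. Of 13 hatching gland genes 6 were raised and 2 lowered, beside 8.81% and 7.60% of all genes, and 1 of the raised (klf4) and both of the lowered (he2 and cpa4) passed against both WT libraries. The hatching enzyme gene he1a had 1243 normalized counts in Cyp26-deficient cells, against 3.7 in their WT cells, and 1572 in Hdac1-depleted cells, against 1011 in the second WT library. Its ratio of 336 to 3 counts in WT had an interval of 115 to 1631, and to the second WT library it was 1.23. ctsl1b, a hatching gland cathepsin, had 254 normalized counts in Cyp26-deficient cells, against 0 in their WT cells and 289 in the second WT library, at least 68.6-fold higher than in their WT against a floor of 3 counts. In both genes the WT library of the Cyp26 comparison stood alone. ctsl1b belongs to a cluster of similar hatching gland cathepsin genes on chromosome 12, between which reads may be split. On chromosome 12, 13.3% of the genes tested were raised, the highest share of the 25 chromosomes, beside 8.81% of all genes. Against both WT libraries 2.8% of them were raised, near the 2.34% of all genes, and chromosome 2 had a higher share, at 3.53%. Of 16 crystallins 8 were raised and 2 lowered against their WT, and 1 of the raised (crygn1) and both of the lowered (cryba1l and crygm2d3) passed against both WT libraries, with medians of 0.82 against their WT (0.32 with genes at 0 taken at their bound) and -2.60 against the second WT library.

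Epidermal and kidney genes also depended on the WT library. Of 32 epidermal genes 1 was raised and 2 lowered, with medians of -0.33 against their WT and -1.54 against the second WT library. The keratin krt4 had 3484 normalized counts in Cyp26-deficient cells, against 5354 in their WT cells and 15956 in the second WT library. Of 15 pronephros genes 4 (26.7%, beside 8.81% of all genes) were raised and 0 passed against both. cdh17, a kidney cadherin, had 262 normalized counts in Cyp26-deficient cells, against 40.7 in their WT cells and 226 in the second WT library. Of 18 somite and tail bud genes 5 were raised, and cdx4 and pcdh8 passed against both WT libraries.

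Several p53 target genes were raised. Of 38 genes of p53 targets and apoptosis 9 (23.7%) were raised and 1 lowered, beside 8.81% and 7.60% of all genes, and ccng1, mdm2, phlda3 and sesn3 were among those that passed against both WT libraries, while the median over the list was 0.17. ccng1, cyclin G1, a direct p53 target, had 41197 normalized counts in Cyp26-deficient cells, against 6226 in their WT cells, and 37151 in Hdac1-depleted cells, against 8236 in the second WT library. It was 6.62-fold (6.43 to 6.81) above its WT and 5.0-fold above the second WT library, and both MO libraries lay above both WT libraries. mdm2, which encodes a ubiquitin ligase, had 3542 normalized counts in Cyp26-deficient cells, against 1528 in their WT cells, and 5888 in Hdac1-depleted cells, against 1275 in the second WT library. phlda3 had 1318 normalized counts in Cyp26-deficient cells, against 513 in their WT cells and 537 in the second WT library, and sesn3 had 735 normalized counts in Cyp26-deficient cells, against 280.1 in their WT cells and 249.7 in the second WT library. cdkn1a, the cell cycle inhibitor p21, had 686 normalized counts in Cyp26-deficient cells, against 209 in their WT cells and 417 in the second WT library, ratios of 3.29 to its WT and 1.65 to the second, and thus passed 2-fold against its own WT only. The pro-apoptotic genes bbc3 and pmaip1 had ratios of 0.92 and 0.673, and baxa was listed on 2 loci within 2-fold. Both MO libraries received the p53 MO, whose own effect on RNA and the effect of Cyp26 loss cannot be told apart here.

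Proliferation and stress genes did not move as groups. Of 55 genes of DNA replication and mitosis 2 were raised (gins3, and birc5a against its own WT only) and 0 lowered, with a median of 0.18. Of 31 genes of endoplasmic reticulum and amino acid stress 0 were raised and 0 lowered, and the median was -0.10. Of 21 heat shock genes 1 was raised, of 32 immediate early genes 1 was raised and 1 lowered, and of 38 genes of Hdac1 and corepressor complexes 0 were raised and 1 lowered. hdac1 had 14836 normalized counts in Cyp26-deficient cells, against 12138 in their WT cells and 12004 in the second WT library, a ratio of 1.22. Of 33 glycolysis genes 2 were raised and 6 lowered (18.2%, beside 7.60% of all genes). The lowered genes ldhbb and aldoca passed against both WT libraries, and ldhbb, a lactate dehydrogenase gene, had 103 normalized counts in Cyp26-deficient cells, against 254 in their WT cells and 263 in the second WT library. The raised glucose transporter slc2a1a had 224 normalized counts in Cyp26-deficient cells, against 35.8 in their WT cells and 73.6 in the second WT library, 6.26-fold (4.23 to 9.58) above its WT. Of 24 interferon and innate immunity genes 0 were raised and 4 lowered, 1 of the 4 against both WT libraries.

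Of the 4 lists of signalling pathways, Wnt genes had the highest share raised. Of 55 Wnt genes 10 (18.2%) were raised and 2 lowered, beside 8.81% and 7.60%, and 4 and 1 passed against both WT libraries, with a median of 0.31 (0.20 against the second WT library). The ligand wnt3a had 267 normalized counts in Cyp26-deficient cells, against 92.5 in their WT cells and 129.8 in the second WT library. The receptor gene fzd1 had 72.6 normalized counts in Cyp26-deficient cells, against 23.4 in their WT cells and 38.9 in the second WT library, and the inhibitor dkk1b had 308 normalized counts in Cyp26-deficient cells, against 96.2 in their WT cells and 538 in the second WT library. Of 37 FGF genes 4 were raised and 2 lowered. fgf19 had 29.9 normalized counts in Cyp26-deficient cells, against 0 in their WT cells and 8.27 in the second WT library, at least 8.07-fold higher than in their WT against the floor. The FGF targets dusp6, etv5b and pea3 had ratios of 1.91, 0.757 and 1.43. Of 52 BMP and TGF-beta genes 2 were raised and 1 lowered. The raised member that passed against both was fsta, which encodes follistatin, an antagonist of activin and BMP, with 1266 normalized counts in Cyp26-deficient cells, against 422 in their WT cells and 247 in the second WT library. It was 3.0-fold (2.66 to 3.39) above its WT and 5.12-fold above the second. Of 45 Notch and Hedgehog genes 2 were raised and 3 lowered, 0 of them against both.

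Among gene families, several claudins were lowered. Of 33 keratins and claudins 1 was raised and 9 (27.3%) were lowered, 7 of the 9 against both WT libraries. Claudins form the seal of tight junctions. cldna had 4.27 normalized counts in Cyp26-deficient cells, against 35.8 in their WT cells and 37.2 in the second WT library, and cldn10l2 had 44.8 normalized counts in Cyp26-deficient cells, against 134 in their WT cells and 122 in the second WT library. Other claudins were not lowered, among them cldn7b and cldn5b, with ratios to WT of 0.97 and 1.08. Of 39 collagens 4 were raised and 3 lowered, and col1a1a, col6a2 and col6a3 were lowered against both. col1a1a, a chain of type I collagen, had 2298 normalized counts in Cyp26-deficient cells, against 4907 in their WT cells and 5605 in the second WT library. In Hdac1-depleted cells col1a1a had 2244. Of 37 laminins and integrins 2 were raised and 0 lowered, and of 80 cytoplasmic ribosomal protein genes 0 were raised and 2 lowered, with a median of -0.11 against their WT but -0.82 against the second WT library. rpl30 stood apart, with 4525 normalized counts in Cyp26-deficient cells, against 12563 in their WT cells and 13274 in the second WT library. Of 261 solute carriers 31 (11.9%) were raised and 18 (6.90%) lowered, near the 8.81% and 7.60% of all genes. Of 75 voltage-gated channels 13 were raised and 9 lowered, of which 5 and 3 passed against both WT libraries. Of 50 neurotransmitter receptors 14 (28.0%) were raised and 7 (14.0%) lowered, beside 8.81% and 7.60% of all genes. Against both WT libraries 5 and 3 of these receptors passed. The second WT library was itself more than 2-fold above the first for 7 of the 50 receptors and more than 2-fold below for 15.

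Among genes of the top expression quintile (mean above 807 normalized counts), 46 were raised and 67 lowered, and 11 and 38 of these passed against both WT libraries. Beside ccng1, cyp26c1, meis3, phlda3 and mdm2, the 11 included mmp2, sox4a, cyp24a1 and bzw1a. The matrix protease mmp2 had 4163 normalized counts in Cyp26-deficient cells, against 1693 in their WT cells and 1901 in the second WT library. sox4a, an HMG-box factor, had 8180.1 normalized counts in Cyp26-deficient cells, against 3457 in their WT cells and 3864 in the second WT library. cyp24a1, which inactivates vitamin D, had 2824 normalized counts in Cyp26-deficient cells, against 1250.0 in their WT cells and 1305 in the second WT library. In the next quintile, cyp27c1, which converts vitamin A1 to A2, had 1503 normalized counts in Cyp26-deficient cells, against 453 in their WT cells and 356 in the second WT library, and its locus overlaps ercc3. dab2, an endocytic adaptor, had 1078 normalized counts in Cyp26-deficient cells, against 279 in their WT cells and 498 in the second WT library, and coagulation factor V, f5, had 1717 normalized counts in Cyp26-deficient cells, against 718 in their WT cells and 537 in the second WT library. The 38 lowered genes included matrix and growth factor binding genes beside nfatc1, lmo2 and crabp2b. Tenascin W, tnw, had 843 normalized counts in Cyp26-deficient cells, against 3171 in their WT cells and 2107 in the second WT library. igfbp5b, which binds insulin-like growth factors, had 2773 normalized counts in Cyp26-deficient cells, against 8905 in their WT cells and 7105 in the second WT library. The translation factor genes eef1b2 and eef1g had ratios of 0.382 and 0.475 to their WT and 0.453 and 0.315 to the second. Hedgehog-interacting gas1a had 631 normalized counts in Cyp26-deficient cells, against 1398 in their WT cells and 1308 in the second WT library. Among the 25 genes that were in the 20 highest of either library, ccng1 was raised and ESM1 and npm1a were lowered. ESM1, an endothelial proteoglycan gene, had 16897 normalized counts in Cyp26-deficient cells, against 40452 in their WT cells and 29446 in the second WT library, and npm1a, nucleophosmin, had 29326 normalized counts in Cyp26-deficient cells, against 59578 in their WT cells and 55321 in the second WT library.

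Ranked by the smaller of the fold changes against the 2 WT libraries, cyp26a1 and ripply3 had ranks 3 and 5 among the raised genes with a gene name. spc24 came first, with 256 normalized counts in Cyp26-deficient cells, against 4.94 in their WT cells and 1.65 in the second WT library. However, 5.15% of its count lay on its listed exons and its locus overlaps kri1 on the same strand, so its level is uncertain. cacng7b, a calcium channel subunit, followed, with 17 counts in Cyp26-deficient cells and 27 in Hdac1-depleted cells, against 0 in each WT library. Its mean of 10.5 normalized counts passed the filter of 10 only through the MO libraries, so its rank depends on that filter. The mean of pou4f2, given below, was 10.3, also near that limit. Rank 4 was ak7b, an adenylate kinase of cilia, with 52.3 normalized counts in Cyp26-deficient cells, against 0 in their WT cells and 3.31 in the second WT library, at least 14.1-fold higher than in their WT against the floor. The genes trpc5a, asb1, lingo1a, ggt1b, pou4f2, gria4a, ccdc85a and erbb4a had 24 to 64 counts each in Cyp26-deficient cells. All of these but ccdc85a, like spc24 and ak7b, had under 10 normalized counts in each WT library. They too passed the filter through MO libraries, so their ranks depend on it as well. Several of these genes, like ak7b, were also higher in Hdac1-depleted cells than in the second WT library. In Hdac1-depleted cells ak7b had 23.1 normalized counts, against 3.31. There asb1, lingo1a, ggt1b and erbb4a had 26.6, 39.0, 55.9 and 18.6, against 6.61, 4.13, 2.48 and 2.48. Likewise trpc5a and pou4f2 had 13.3 and 9.76, against 3.31 and 0, whereas gria4a and ccdc85a were within 2-fold. Of the genes lowered against both WT libraries, lgals1l1, a galectin, ranked first, with 1.07 normalized counts in Cyp26-deficient cells, against 34.6 in their WT cells and 62.8 in the second WT library. and2, an actinodin of the fin fold, had 21.3 normalized counts in Cyp26-deficient cells, against 379 in their WT cells and 217 in the second WT library. cox6b1, a subunit of cytochrome oxidase, had 3.2 normalized counts in Cyp26-deficient cells, against 46.9 in their WT cells and 53.7 in the second WT library. The genes mag and pard6ga had 0 counts in Cyp26-deficient cells, at least 14.6-fold and 8.87-fold lower than in their WT cells against a floor of 3 counts. ptprq, a phosphatase of sensory hair bundles, had 2.13 normalized counts in Cyp26-deficient cells, against 173 in their WT cells and 24.8 in the second WT library. In Hdac1-depleted cells and2 and ptprq had 60.3 and 0.887 normalized counts, against 217 and 24.8 in the second WT library. There lgals1l1, mag, pard6ga and cox6b1 were within 2-fold of that library. Of loci with clone names, BX537263.3 had 523 counts in Cyp26-deficient cells and 0 in each of the other 3 libraries. It passed the filter through Cyp26-deficient cells alone. Its locus lies on chromosome 5 from 1200246 to 1200335.

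The share of genes past 2-fold depended on their expression level. In the lowest quintile by mean normalized count 20.6% of genes were raised and 19.1% lowered, and in the highest quintile 1.15% and 1.67%. Against both WT libraries the shares were 6.64% and 9.51% in the lowest quintile and 0.275% and 0.948% in the highest. Short transcripts passed 2-fold more often in both directions, with 13.5% raised and 11.2% lowered in the shortest quintile and 3.37% raised and 4.42% lowered in the longest, and the median log2 fold change was 0.04 and -0.12 in these quintiles. Clone-named genes made up 19.3% of the genes tested, 24.6% of those raised and 32.7% of those lowered. Over all 29 cell type lists together, 525 distinct genes were tested, of which 88 were raised and 43 lowered, and 15 and 25 passed against both WT libraries.

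**Figure D5:**
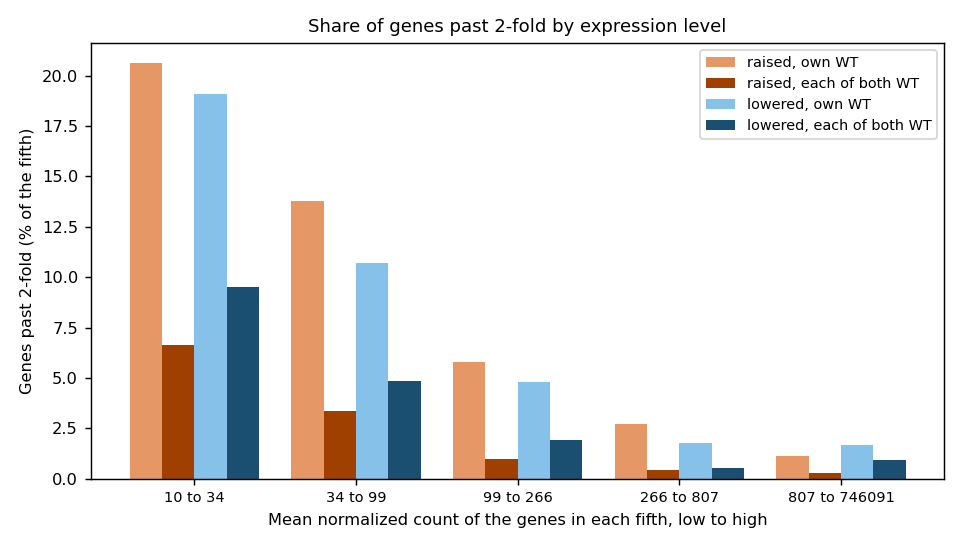
Percent of genes past 2-fold in each quintile of genes by mean normalized count, lowest quintile at the left. Light bars count genes against their own WT and dark bars genes against each of both WT libraries. The share raised against their own WT is 20.6% in the lowest quintile and 1.15% in the highest.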

How the data were processed

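RNA of FACS-sorted cells, amplified before library preparation, was sequenced as paired-end reads. Alignment to Zv9/danRer7 was done by the authors with Strand-NGS, and the values they deposited are expected counts, which need not be whole, for each gene and each exon. Whether counting used strand is not given in the sources used here, so reads of overlapping genes, 3968 of those tested, may be split or shared. Among the named genes these include the hox clusters, cldn10l2, stm, matn4, sox4a, he1a, spc24, trpc5a and gria4a. Duplicate loci of 1 name (baxa and sox4a) were kept apart. The sox4a values are those of 1 locus, which overlaps another locus of that name on the same strand.

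These expected counts were rounded, and size factors by the median of ratios, computed across the 4 sorted-cell libraries, scaled them to normalized counts (0.937 for Cyp26-deficient cells, 0.8104 for their WT cells). Log2 fold changes used a pseudocount of 1, genes needed normalized counts averaging 10 or more, and calls needed more than 2-fold, the threshold of the study. A count of 0 has a floor of 3 counts, which is 3.201 normalized counts in Cyp26-deficient cells and 3.702 in their WT cells. Intervals condition on the sum of both counts at a confidence level of 95%. With 1 library per condition no test was run. The authors' own comparisons were not used.

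Gene names came from the table, and 20756 identifiers matched the reference names. Genes named include the MO targets and members of lists of cell type markers, functions and gene families. Others come from the 20 genes per direction with the largest change against each of both WT libraries, and from the 20 highest of either library. Not all genes of these last sets are named. List members within 2-fold were picked by role. The genes ets2, cyp24a1, sox4a, bzw1a, cyp27c1, dab2, f5, tnw, igfbp5b, eef1b2, eef1g, gas1a and locus BX537263.3 were chosen after their values were seen. Members, lists and the rule on both WT libraries were chosen with earlier results of these data known. Scripts were tested on simulated counts. Alternatives were TMM factors (edgeR 4.0.16, R 4.3.3), equal totals, other pseudocounts, filters, thresholds and WT libraries. Python 3.11.15 with numpy 2.4.6, pandas 2.3.3, scipy 1.17.1 and matplotlib 3.10.9 was used.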

Additional observations from a re-analysis of the deposited data

How the results depend on the processing

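No paired analysis was possible because each condition has 1 library. The numbers of genes raised past 2-fold and of genes lowered past 2-fold moved beyond 1.5 times, to 1114 and 926 with a pseudocount of 10, 3997 and 3161 without a filter, 718 and 590 with normalized counts averaging 50 or more, 415 and 264 past 4-fold, 498 and 415 where the nearer limit of the counting interval had to pass 2-fold, and 469 and 712 against each of both WT libraries, an alternative chosen after seeing the data. Against the mean of both WT libraries 913 genes were raised. TMM factors, size factors over the pair, unrounded counts and a pseudocount of 0.1 moved none of 193 named genes and none of 67 list medians. Equal total counts moved 31 named genes and 3 list medians, a filter at a mean of 50 moved 1 list median, a pseudocount of 10 moved 20 and 0, the mean of both WT libraries moved 82 and 16, and the second WT library moved 115 and 24, apart from the changes of sign below. Against the second WT library the median log2 fold change was -0.53 for cardiomyocyte genes and -0.23 for SHF genes. Among the 193 named genes, 8 called genes changed sign against it: actc1b (-0.021), birc5a (-0.59), ctsl1b (-0.19), dkk1b (-0.80), dlx1a (1.57), dlx4b (1.75), elna (-0.92) and phox2a (-0.79). Called genes outside the named ones also changed sign, such as mylpfa (-0.46), and were not counted. Against the mean of both WT libraries dkk1b (-0.041) and elna (-0.22) changed sign among the named genes. The cause was not tested. Depth limits genes near the floor of 3 counts, where 1 library per condition cannot separate counting error from a change.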
